A study of Drosophila melanogaster and Drosophila ananassae and Drosophila pseudoobscura with 52 samples.

Results

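Editing levels of Drosophila yakuba (D.yak) were compared site by site with those of Drosophila melanogaster (D.mel). A site entered where the tables of the species comparison gave a level in D.yak and in D.mel for the same sex. This held for 492 of the 2380 sites listed, of which 385 were compared in males, 454 in females and 347 in both sexes. The samples were whole bodies of adult flies of 5 days, in 8 mmPCR-seq libraries, 2 of each sex and species. D.yak came from stock 14021-0261.01 and D.mel from stock 14021-0231.69, without further treatment, and each species is therefore represented by 1 stock. Males of 8 inbred D.mel strains from the Drosophila Genetic Reference Panel (DGRP lines), with 2 libraries each, served as a measure of how far D.mel strains differ among themselves. These were lines 26, 325, 352, 441, 721, 774, 786 and 804, also whole flies of 5 days. Other Drosophila species of the series, of the same age, are given beside them at some sites.

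A-to-I editing is the deamination of adenosine to inosine in double-stranded RNA by ADAR enzymes. Inosine is read as guanosine, so that an edited site appears as a G in cDNA where the genome has an A. In flies, a single Adar gene carries out this editing, many edited transcripts encode ion channels and proteins of synaptic transmission, and loss of Adar leads to defects of movement and behaviour. The double-stranded region forms when the sequence around the edited adenosine pairs with a complementary sequence of the same transcript, and neighbouring adenosines of one such duplex are often edited together. For mmPCR-seq, selected loci are amplified from cDNA in parallel microfluidic multiplex PCRs and sequenced, and the editing level is the share of G among the reads of a site.

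The deposited tables hold 1 level per site, species and sex. They hold no value of single libraries and no read counts, so that single levels have neither a replicate error nor a depth of their own here, and counting intervals could not be given. Levels of exactly 0 occurred at 1 male and 3 female D.yak sites and at 1 male and 1 female D.mel site among those compared. The authors defined a base other than A in the genome of a species as a level of 0, but at the 3 of these sites with D.yak levels in both sexes the other sex of D.yak had 0.05% to 0.15%. A level near 100% can come from a genomic G as well as from editing, and the tables do not separate these. A whole-body level also combines all tissues, and a lower level in every cell cannot be told apart from fewer cells that edit. Sites are named by chromosome arm and position in the D.mel build dm3. No gene, exon or strand is given in the tables, and none was assigned.

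Loci were chosen for editing in D.mel, and D.yak was covered less completely. D.yak had a level at 434 sites in males and 497 in females, against 752 and 824 in D.mel. Among the sites with a D.mel level and no D.yak level, D.mel was at 10% or more at 181 of 367 sites in males and at 126 of 370 in females. These sites were not compared. The primers printed here amplified the loci on which the results below turn, as the study's primer table gives them for D.mel, 5′ to 3′. Of the 492 sites compared, 250 were themselves primer targets, and for the other loci shown the nearest target is given. The locus of the largest increase in both sexes, on the + strand at chr3L:2941312, had
forward primer: tgccgaaaaggatgaaaaggat
reverse primer: cttttcgcggcgcatct
The 2 adjacent sites that were both higher in D.yak were amplified with the target chr3R:15579485, + strand:
forward primer: tcttatactttgccagcctgt
reverse primer: tgttcacggaaggttaactgc
The cluster in which D.yak was lower over several sites had the target chr3L:9826391, + strand:
forward primer: gcaatactacagcaggtgtgac
reverse primer: tggtctccaatctaagccatac
The cluster of 5 sites in which 1 was lower by at least 10 points had the target chr3L:4369213, − strand:
forward primer: caattccgtatcgctttgaga
reverse primer: tgcaggactttgtagttcttc
The site of chromosome 4 that was lower by the most had the target chr4:768364, + strand:
forward primer: gtcgctgaggttttacctagt
reverse primer: tataggatccccgccatca
One of the gains lay beside the target chr3L:16104689, − strand:
forward primer: ccaagacattctatcagcagt
reverse primer: tttggtttggattgccctgat

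Most sites had similar levels in both species. The median difference, D.yak minus D.mel, was -0.2 percentage points in males and -0.1 in females, and the median size of a difference without regard to sign was 3.25 points in males and 1.65 in females. Over the 347 sites with 4 levels, the median level in males was 4.55% in D.yak and 7.55% in D.mel, and in females it was 3.05% in D.yak and 3.75% in D.mel. By sign alone, D.yak was higher at 166 and lower at 209 male sites, with 10 equal. In females D.yak was higher at 208 and lower at 238 sites, with 8 equal. Both species were edited, defined as a level of 2% or more, at 243 male and 232 female sites. D.yak alone passed this limit at 16 male and 29 female sites, and D.mel alone at 55 and 56. The remaining 71 male and 137 female sites were under it in both species. Across the sites edited in both, Spearman's rho was 0.823 in males and 0.875 in females. These sites share libraries and often an amplicon, and rho is a description only.

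A difference of at least 10 percentage points was taken as a change of level. In males, D.yak was higher by this much at 27 sites (7.01% of 385) and lower at 43 (11.2%). In females, D.yak was higher at 30 sites (6.61% of 454) and lower at 31 (6.83%). The male excess of lower sites lay at moderate levels. Among male sites whose higher level was between 10% and 30%, D.yak was higher at 6 and lower at 23 of 80. Between 30% and 60% the counts were 8 and 7 of 44, and above 60% they were 13 and 13 of 61. Females showed 6 higher and 10 lower of 67 in the first of these ranges, 17 and 11 of 49 in the second and 7 and 10 of 48 in the third. The difference between the sexes in these counts was not tested. Loci were chosen for editing in D.mel, and how far that choice shaped the balance of higher and lower sites was not tested.

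**Figure D1:**
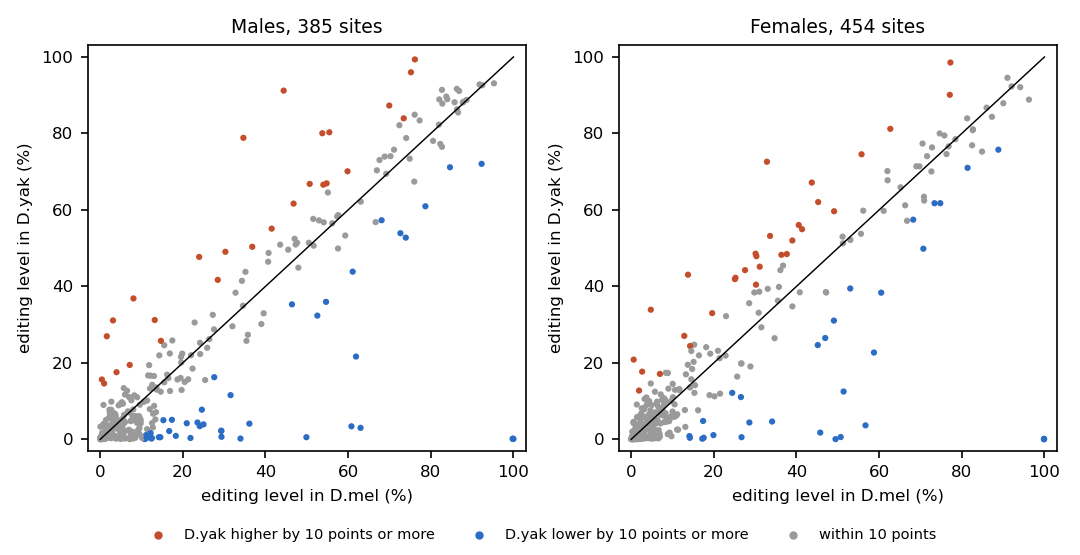
Editing level in D.yak (vertical axis, %) against the level in D.mel (horizontal axis, %), 1 point per site, with the line of equal levels. Orange points are the 27 male and 30 female sites at least 10 percentage points higher in D.yak, and blue points the 43 male and 31 female sites lower by as much, several of which lie along the bottom of the plot.

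Changes of level mostly had the same sign in both sexes. Of the 347 sites with all 4 levels, 231 (66.6%) differed in the same direction whatever the size. D.yak was at least 10 points higher in both sexes at 13 sites (3.75% of 347) and at least 10 points lower in both at 18 (5.19%). Of these, 11 higher and 13 lower sites had a level in at least 8 DGRP libraries. The D.yak male level also lay at least 10 points from the mean of the lines, in the same direction, at 7 and 8 of them. No site passed 10 points in opposite directions. A further 30 sites passed the limit in males only, 12 higher and 18 lower, and 25 of these had the same sign in females. Of the 18 lower ones, 11 had a D.mel female level under 10%, where a fall of 10 points is not possible. In females only, 11 sites passed it, 6 higher and 5 lower, and 9 had the same sign in males. The higher sites of both sexes lay in 11 clusters and the lower ones in 14, where a cluster joins sites no more than 50 bp from the next.

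**Figure D2:**
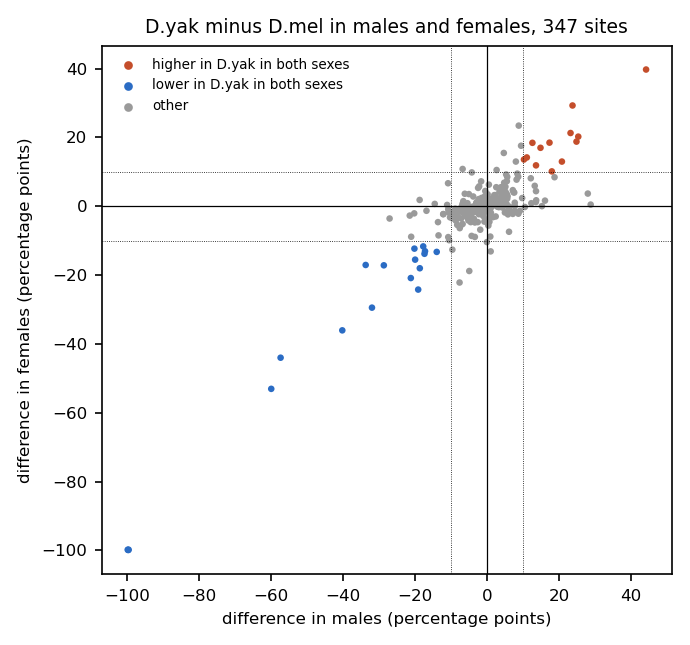
Difference in editing level, D.yak minus D.mel, in females (vertical axis, percentage points) against males (horizontal axis, percentage points) at 347 sites, with dotted lines at 10 points. The 13 orange and 18 blue sites passed 10 points in the same direction in both sexes, and the upper left and lower right corners beyond the dotted lines are empty.

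The species term was tested with limma over the 284 sites that had all 4 levels and reached 2% in at least 1 of them, with sex as a second term, on the log2 of the odds of editing. The spread in this test is the disagreement of the species difference between males and females, which is not a spread between flies. After Benjamini-Hochberg adjustment at 0.05, 62 sites passed, with D.yak higher at 16 (5.63% of 284) and lower at 46 (16.2%). Of these sites, 24 differed by less than 10 points in both sexes. The split between higher and lower depended on the scale, and without the transformation 7 sites were higher and 12 lower. It also rests on loci chosen for editing in D.mel. Among the sites past 10 points in both sexes, 8 of the 13 higher and 15 of the 18 lower ones passed the test. The choice of these sites and the test rest on the same 4 levels. Passing is therefore no separate support for them, here or where they are named below. In all 5 alternative fits, 12 of the 62 sites passed, 3 higher and 9 lower.

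The largest increase in both sexes was at 3L:2941312. D.yak had 78.85% in males and 72.60% in females, against 34.65% and 32.85% in D.mel (log2 odds difference 2.56 ± 0.30, SE of limma, adjusted p = 0.00505). D.simulans (D.sim), the closest relative of D.mel in the series, had 74.05% in males and 69.90% in females. The 16 DGRP libraries had 70% to 80% with a median of 74.75%, so that the D.yak male level lay among those of the DGRP lines and the D.mel stock stood apart from both. Of its neighbours, 3L:2941396 was also higher by at least 10 points in both sexes, with 55.10% in males and 48.25% in females in D.yak, against 41.50% and 36.35% in D.mel. At 3L:2941364, D.yak had 87.80% and 83.95%, against 82.80% and 81.30% in D.mel. The nearest positions were low in both species, and at 3L:2941311, 1 base away, D.yak had 4.90% in males and D.mel 9.80%.

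X:16365352 was the second by this order. D.yak had 47.70% in males and 43.05% in females, against 23.95% and 13.75% in D.mel (adjusted p = 0.0188, limma). It passed in 3 of 5 alternative fits, with adjusted p up to 0.137 (limma). Here the D.yak male level was above all DGRP libraries, which had 20.9% to 34.8%. D.sim females had 57.55%.

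At X:17824691, D.yak was almost completely read as G, with 99.35% in males and 98.55% in females, against 76.15% and 77.25% in D.mel (log2 odds difference 3.96 ± 0.32, SE, adjusted p = 0.0016, limma). D.sim had 80.35% and 77.90%, and the DGRP libraries 75.7% to 90.3%. D.yak thus stood above every D.mel and D.sim level of this site. Whether the D.yak genome carries a G here was not tested.

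At 3L:7659663, D.yak had 26.95% in males and 20.85% in females, against 1.60% and 0.60% in D.mel (log2 odds difference 3.97 ± 0.29, SE, adjusted p = 0.00149, limma). It was the only one of these 8 sites with a D.mel level under 2%. Neither D.sim nor the DGRP lines had a level at this site.

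At the adjacent sites 3R:15579485 and 3R:15579486, D.yak was higher at both. The first had 80.30% in males and 74.55% in females in D.yak, against 55.45% and 55.75% in D.mel (adjusted p = 0.0321, limma). The second had 96.00% and 90.10% in D.yak, against 75.20% and 77.10% in D.mel (adjusted p = 0.0297, limma). Neither call was stable, the first site passing in 2 of 5 alternative fits with adjusted p up to 0.137 and the second in 1 of 5 with adjusted p up to 0.145 (limma). Both D.yak male levels were above all DGRP libraries, whose highest levels were 65.3% and 84.1%. The remaining higher sites of the first 8 are 3L:9148318 and 2R:20802397, and the plot of the named sites shows them in sixth and seventh place.

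At 3L:9148318, D.yak had 87.30% in males and 81.20% in females, against 69.95% and 62.70% in D.mel (adjusted p = 0.0301, limma). The DGRP libraries, all of males, had 84.9% to 91.5%, so that the D.yak male level lay within them and the D.mel male level below them. The site passed the test in 3 of 5 alternative fits, with adjusted p up to 0.191 (limma). At 2R:20802397, D.yak had 61.65% and 42.25%, against 46.80% and 25.25% in D.mel, and the species term did not pass the test (adjusted p = 0.0757, limma). The DGRP libraries had only 0.6% to 7.5% at this site, far below both the D.yak and the D.mel stock. They were similarly low at the neighbouring 2R:20802388, with 0.4% to 9.6%, where females had 44.25% in D.yak and 27.55% in D.mel. Why the lines differ from the D.mel stock here was not tested.

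The 5 further sites past 10 points in both sexes lay at 2R:20798584, 3L:2941396, 2R:4771195, 2L:4314586 and 3R:6410657. At the first and the last of them, the D.yak male level was more than 10 points above all DGRP libraries. The first had 66.60% in males and 48.55% in females in D.yak, against 54.00% and 30.10% in D.mel. The DGRP libraries had 45.2% to 53.0% there. The last had 31.20% in males and 17.10% in females in D.yak, against 13.20% and 6.95% in D.mel. The DGRP libraries had 6.5% to 9.6% at this site. Over all 13 sites, the median difference was 18.0 points in males and 18.45 in females. D.sim was nearer to D.yak at 6 and nearer to D.mel at 6 of the 12 sites where it had a level.

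**Figure D3:**
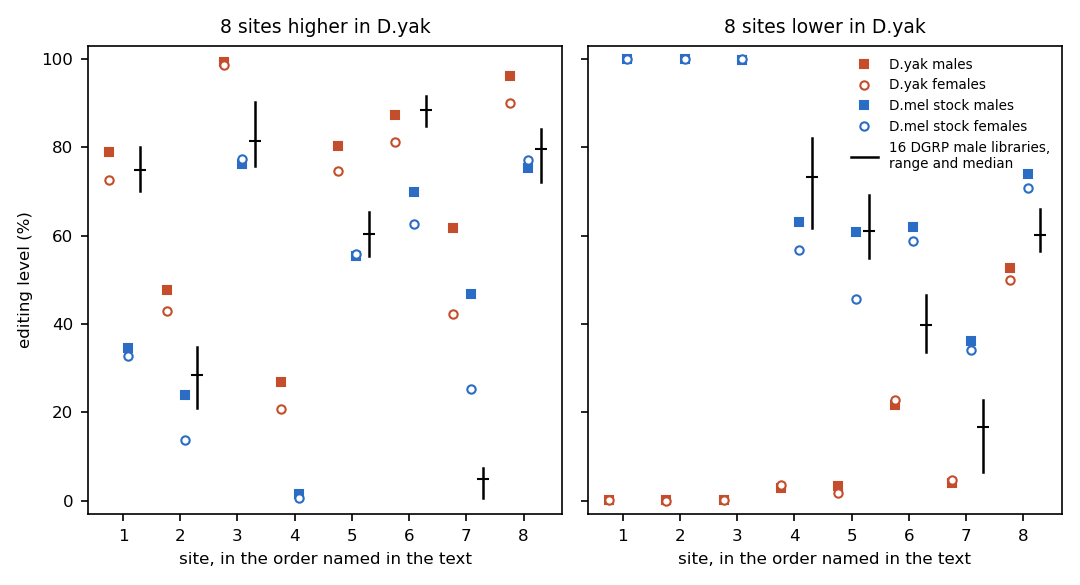
Editing level (vertical axis, %) of the 8 sites with the largest change in both sexes in each direction, D.yak left of D.mel, with filled squares for males and open circles for females. Higher sites 1 to 8 are 3L:2941312, X:16365352, X:17824691, 3L:7659663, 3R:15579485, 3L:9148318, 2R:20802397 and 3R:15579486, and lower sites 1 to 8 are 3L:2259941, 2L:8224296, 3R:25682017, 3L:4369162, 4:768364, 3L:9826400, 3L:9826394 and 3L:9826401. Black bars give the range and median of the 16 DGRP libraries where these had levels.

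The largest differences downward spanned nearly the whole scale. At 3L:2259941, D.yak had 0.10% in males and 0.10% in females, against 100% and 99.90% in D.mel. At 2L:8224296, D.yak had 0.15% and 0.00%, against 99.90% and 99.90% in D.mel, and at 3R:25682017 D.yak had 0.15% and 0.10%, against 99.80% and 99.90% in D.mel. D.sim was at 0.25% or less at all 3 sites, and the DGRP table gave no level. Both D.mel columns thus stood at about 100% and the D.yak and D.sim columns near 0%, and a G in the genome of the D.mel stock cannot be told apart from complete editing in these tables. Each passed the test (adjusted p = 7.85e-06, limma), and no other site had a smaller p. In all, 8 of the 492 sites reached 95% in a column of either species, 3 in D.yak only and 5 in D.mel only.

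At 3L:4369162, D.yak had 3.00% in males and 3.65% in females, against 63.00% and 56.70% in D.mel (log2 odds difference -5.07 ± 0.32, SE, adjusted p = 0.000839, limma). D.sim was as low as D.yak, with 2.75% and 3.10%, while the DGRP libraries had 61.7% to 82.0%, with a median of 73.25%. The high level was thus shared by the D.mel stock and the lines and seen in neither D.yak nor D.sim. None of the other sites of its cluster was lower by 10 points. At 3L:4369184, 22 bases away, D.yak had 73.95% in males and 67.75% in females, against 68.85% and 62.05% in D.mel. At 3L:4369185, D.yak had 43.80% and 38.40%, against 35.15% and 29.80% in D.mel. The direction was mixed at the low sites of the cluster, and at 3L:4369207 D.yak had 6.05% and 4.90%, against 9.40% and 6.40% in D.mel.

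In the cluster on 3L that begins at 9826390, the difference extended over the neighbouring sites. At 3L:9826400, D.yak had 21.65% in males and 22.70% in females, against 61.90% and 58.75% in D.mel (adjusted p = 0.00571, limma). At 3L:9826394, D.yak had 4.10% and 4.65%, against 36.10% and 34.10% in D.mel (adjusted p = 0.00205, limma). At 3L:9826401, D.yak had 52.75% and 49.85%, against 73.95% and 70.70% in D.mel (adjusted p = 0.0349, limma). The last of these passed in 2 of 5 alternative fits, with adjusted p up to 0.145 (limma). The order of the sites by level was nearly the same in both species, with 3L:9826401 highest and 3L:9826400 second. All 6 sites of this cluster, which spans 16 bases, were lower in D.yak in both sexes.

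The D.mel stock was again high for its species in this cluster. The DGRP libraries had 33.7% to 46.5% at 3L:9826400, 6.5% to 22.9% at 3L:9826394 and 56.6% to 66.0% at 3L:9826401, between D.yak and the D.mel stock in each case. The next cluster begins 146 bases after the last site of this one. At its site 3L:9826559, D.yak males had 0.55%, against 49.90% in D.mel males and 28.0% to 53.3% in the DGRP libraries. D.sim had 37.30% in males and 33.00% in females there, so that D.yak alone of these groups was near 0%.

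**Figure D4:**
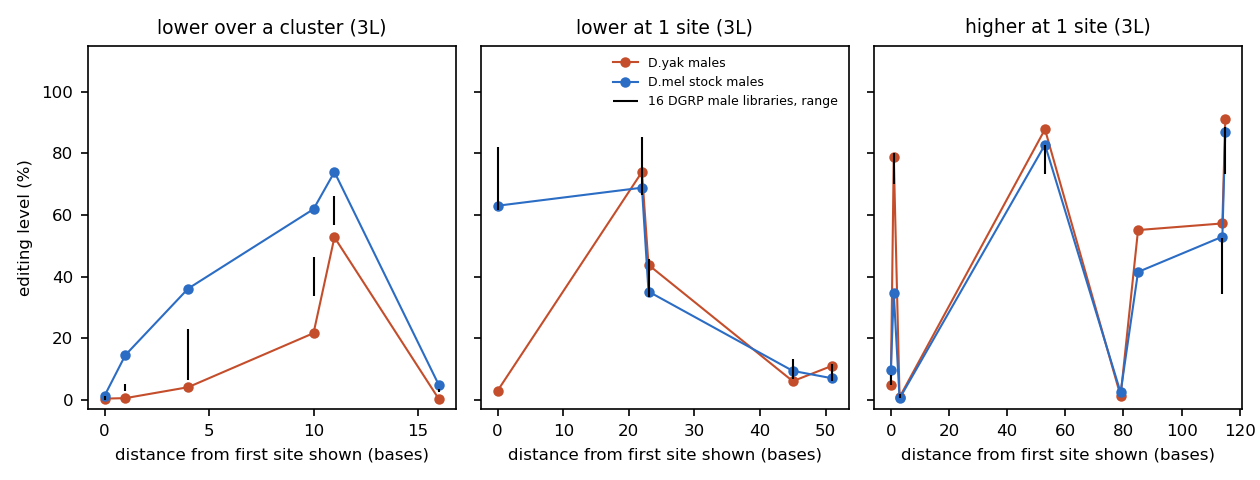
Editing level in males (vertical axis, %) against the distance in bases from the first site shown, for 3 loci on chromosome arm 3L, with D.yak in orange, the D.mel stock in blue and the range of the 16 DGRP libraries as black bars. D.yak lay below D.mel over the whole first cluster, by at least 10 points at the first site alone in the second, and in the third above the D.mel stock by 44.2 points at the second site shown, where D.yak lay within the range of the lines, and by 13.6 points at the sixth.

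Across all sites, close neighbours differed in the same direction more often than not. Pairs of adjacent sites no more than 50 bp apart had the same sign of difference in 106 of 161 pairs in males and in 125 of 191 in females, with rho of 0.506 and 0.468 between the differences of neighbours, as a description. Where both sites of a pair passed 10 points, in 10 male and 9 female pairs, the direction was the same in every pair. More often only 1 of the pair passed it, in 33 male and 40 female pairs. These pairs share amplicons and libraries. In all, 323 of the 492 sites lay in 109 clusters of up to 9 sites, and 169 had no neighbour within 50 bp.

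All 5 sites on chromosome 4, the small dot chromosome, were lower in D.yak in both sexes and passed the test, against 16.2% of all sites tested. In the 5 alternative fits, 4:768364 passed in all, 4:787813, 4:787825 and 4:787890 in 4 each, and 4:895009 in 1, with adjusted p from 0.0329 to 0.582 (limma). At 4:768364, D.yak had 3.4% in males and 1.75% in females, against 60.80% and 45.75% in D.mel (log2 odds difference -5.01 ± 0.29, SE, adjusted p = 0.000712, limma). D.sim had 52.60% and 40.90% and the DGRP libraries 55.0% to 69.1%, so that D.yak alone of these groups was low. The more distant D. ananassae was low as well, with 0.40% and 0.20%, while D. virilis males had 55.9%. At 4:787890, D.yak had 0.90% and 0.40%, against 18.30% and 14.20% in D.mel, and D.sim had 17.05% and 12.80%. D. ananassae, D. pseudoobscura and D. virilis were at 0.3% or less there. At 4:895009, where D.yak had 32.35% and 12.15% against 52.55% and 24.45% in D.mel, D.sim had 31.35% in males, near the D.yak males, and 30.90% in females, above the females of both other species. The sites at 787813, 787825 and 787890 are close neighbours, with 12 and 65 bases between them, and the 5 are not independent.

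Leaving aside chromosome 4, the share of tested sites called lower ran from 5.77% on X and 6.35% on 2R to 18.8% on 3R and 25.9% on 3L. The share called higher ran from 3.85% on X to 9.52% on 2R, the only one of these arms with more calls higher than lower, 6 against 4. The arms were not compared by a test, since sites of a cluster move together.

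Gains of editing in D.yak were rare among the sites that could be compared. A gain was defined as a level of 1.5% or less in D.mel in every sex measured and of 10% or more in D.yak in at least 1 sex with a level in both species. Of 91 sites that were so low in D.mel, 74 were at 1.5% or less in D.yak as well, 3 lay between 1.5% and 2%, 11 from 2% to under 10%, and 2 were gains (0.407% of 492). The remaining site, X:10640521, had 17.15% in D.yak males, where D.mel had no level, and in females 1.75% in D.yak and 1.40% in D.mel, and is not counted. Both gains passed only in males.

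At 3L:16104687, D.yak had 15.65% in males and 0.40% in females, against 0.40% and 0.35% in D.mel. Its neighbour 3L:16104689 had 36.85% in D.yak males, against 8.05% in D.mel males, and 1.80% in D.yak females, against 1.30% in D.mel females. The difference was thus present at both positions in males and small in females. D.sim had 0.80% and 0.40% at the first and 16% and 2.65% at the second.

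The other gain, 2R:9064747, had 14.60% in males and 2.00% in females in D.yak, against 0.95% and 0.25% in D.mel. At the adjacent 2R:9064746, D.yak had 31.10% and 4.25%, against 3.10% and 0.55% in D.mel, and D.sim had 3.35% and 0.45%. D.yak was higher than D.mel and D.sim in both sexes at both positions, with the larger difference in males. The direction was opposite at 2R:9064813, 66 bases from the gain. D.yak had 2.2% and 0.95% there, against 29.3% and 4.5% in D.mel and 22.2% and 1.65% in D.sim. Neither gain had a level in the DGRP lines, and there is no replicate value by which a single level can be checked.

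Some sites just missed the definition. 3L:7659663, described above, exceeded the limit in D.mel males by 0.1 points and was the only such site with a D.yak level above 20% in both sexes. At 2L:15651239, D.yak had 9% and 9.1%, against 0.80% and 1.35% in D.mel. 3R:14181027 missed it by more. Its D.yak females had 33.90%, against 4.75% in D.mel females, which is above the 2% limit of editing. In all, 7 sites were under 5% in D.mel and at least 10 points higher in D.yak in some sex.

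Losses, defined in the same way with the species exchanged, were found at 20 sites (4.07% of 492). They include the 3 sites at about 100% in D.mel. Gain and loss are names for patterns of levels only, and in which species editing had changed was not tested. The counts of gains and losses are not comparable in kind, because loci were chosen for editing in D.mel. The highest of the other losses were 3R:191196, with 0.60% in D.yak females against 50.70% in D.mel females, 3L:9826559, described above, and 3R:26872226, with 0.05% in D.yak females against 49.45% in D.mel females. The DGRP libraries, all of males, had 48.2% to 59.4% at 3R:191196 and 8.6% to 71.7% at 3R:26872226. DGRP levels existed for 10 of the losses. At 3L:9826391 (2.8% to 5.2%) and 3R:191127 (4.8% to 7.2%) no library reached 10%, and at the others the highest library did. At 3R:4212460, D.yak had 0.20% and 0.15%, against 33.95% and 17.20% in D.mel, and at 3R:4212480, D.yak had 0.65% and 0.40%, against 29.35% and 17.55% in D.mel.

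D.sim had a level at 18 of the 20 lost sites. It was at 10% or more at 6 of these, at 1.5% or less at 5 and between these limits at 7. D. ananassae, a more distant species, had a level at 8 of them and was at 1.5% or less at 7 and at 10% or more at 1. At the sites past 10 points lower in both sexes, D.sim was nearer to D.yak at 12 and nearer to D.mel at 5 of 17. All counts of this paragraph include the 3 sites near 100%. D.sim and D. ananassae were at 0.4% or less there, and D.sim was nearer to D.yak at all of them.

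The male levels of D.yak were then set beside those of all D.mel strains at the 287 sites with a level in at least 8 of the 16 DGRP libraries. D.yak lay within the range of the D.mel strains, the stock included, at 154 sites (53.7%), above it at 54 and below it at 79. It lay at least 10 points beyond the range at 19 sites, above at 8 (2.79% of 287) and below at 11 (3.83%). The largest of the 8 was X:21904549, where D.yak males had 91.20%, against 44.40% in D.mel males and 39.9% to 51.8% in the DGRP libraries. D.yak females had no level at this site. Another was 2R:20800371, where D.yak males had 80.05%, against 53.75% in D.mel males and 49.2% to 67.1% in the DGRP libraries.

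Below the range, the sites 3L:4369162, 4:768364 and 3L:9826559 were followed by 3R:15056819, with 2.25% in D.yak males, against 29.30% in D.mel males and 19.9% to 35.6% in the DGRP libraries. At 2L:11796346, D.yak males had 0.35%, against 21.85% in D.mel males and 17.8% to 32.1% in the DGRP libraries. D.sim males had 42.75% at the first and 22.55% at the second, on the side of D.mel. Of the 11 sites, 3 lay on chromosome 4.

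Which D.mel strain was used changed the balance of directions. At the same 287 sites, D.yak males were at least 10 points higher than the D.mel stock at 20 and lower at 32, whereas against the mean of the 8 lines D.yak was higher at 29 and lower at 25. Calls shared by both comparisons were 16 higher and 21 lower. The stock itself was at least 10 points above the mean of the lines at 12 sites and below it at 5. The tables of the species and of the lines were made separately, and the strain cannot be told apart from the table.

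D.yak differed from a D.mel line more than D.mel strains differed from each other. Against each of the 8 lines, D.yak males passed 10 points at 18.2% to 22.3% of sites. The D.mel stock passed it at 6.64% to 12.6% of sites against the same lines, and the 28 pairs of lines at 1.74% to 9.79%. The ranges of the first and second did not overlap, and all comparisons with D.yak share the same D.yak values. Between the 2 libraries of a line, the median difference was 1.2 points, and 3.11% of 2251 site pairs differed by at least 10 points. A single D.yak or D.mel level is deposited as a value of 2 libraries together, for which no such spread can be had.

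**Figure D5:**
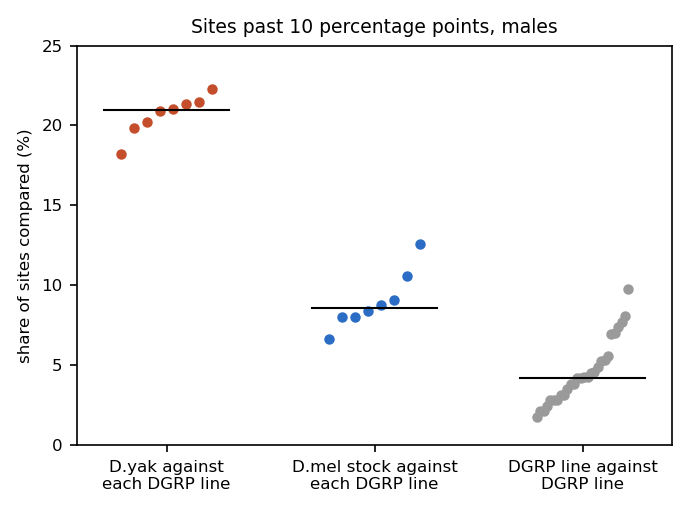
Share of sites (vertical axis, %) that differed by at least 10 percentage points in males, for D.yak against each of the 8 DGRP lines, the D.mel stock against each line, and all 28 pairs of lines, with the median as a horizontal line. The points of D.yak lie between 18.2% and 22.3%, above those of the D.mel stock, which end at 12.6%, and of the pairs of lines, which end at 9.79%.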

How the data were processed

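Editing levels came from mmPCR-seq of whole flies. Reads were split by barcode (FASTX Toolkit) and mapped by the authors with TopHat, each species on its own genome, and sites above a minimum of reads were kept. Versions are not given in the sources used here. The unit deposited by the authors is the editing level as a fraction from 0 to 1, with 1 value per species and sex and 1 per DGRP library, without normalization between samples. For its own comparison of species, the study also set a limit on the difference between replicates, and the sources used here do not say whether the tables passed it or how 2 libraries were combined. The tables hold no read number for single levels.

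Levels were converted to percent. In the DGRP table, 16 positions written with letters in place of digits were restored from the order of rows, and 0 columns were left without a group. Species were compared by differences in percentage points, with a limit of 10, and with limma 3.58.1 in R 4.3.3 on log2((level + 0.01)/(1 − level + 0.01)), at adjusted p below 0.05. Python 3.11.15, numpy 2.4.6, pandas 2.3.3 and matplotlib 3.10.9 were used. Sites named singly were the 8 with the largest change in both sexes per direction, ranked by the smaller of both differences, the gains, and the losses with the highest D.mel levels. Others were named after their values were seen, such as the neighbours of these sites, the sites of chromosome 4 and those beyond the range of the lines. Sites and lists were chosen with earlier results of these data known. Clusters ignore strand, which the tables lack, and genes were not assigned, because the annotation at hand uses another build. The counts of differences, gains, losses, clusters and sites outside the range of the strains, and the limma fit, were tested on simulated data. Alternatives were other limits, filters, scales and DGRP libraries.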

Additional observations from a re-analysis of the deposited data

Results flagged for a closer look

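At 3 sites the difference between the species was at least 5 percentage points in opposite directions in the sexes. At 2L:5364325, males had 1.35% in D.yak and 8.15% in D.mel, a difference of -6.80 points, and females had 12.75% in D.yak and 1.90% in D.mel, a difference of 10.85 points. At 2L:5364346, 21 bases away, males had 0.25% in D.yak and 11.10% in D.mel (-10.85 points), and females had 12.45% in D.yak and 5.75% in D.mel (6.70 points). D.sim had 6.25% in males and 10% in females at the first and 12.85% and 10.2% at the second. At X:6002745, males had 83.40% in D.yak and 77.30% in D.mel (6.10 points), and females had 63.45% in D.yak and 70.85% in D.mel (-7.40 points). The D.mel male level there lay within the 54.8% to 84.3% of the DGRP libraries. Each level is 1 deposited value, so the difference between the sexes was not tested.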

How the results depend on the processing

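No paired analysis was possible because the columns of the species tables carry no replicate number, and leaving out a replicate was not possible either. With a limit of 5 points, D.yak was higher at 61 and lower at 84 male sites and higher at 58 and lower at 62 female sites, and with 20 points at 10 and 19 male and 6 and 16 female sites. In both sexes together, 26 sites were higher and 28 lower with 5 points, and 4 and 8 with 20 points. With 1 site per cluster, 16 male and 17 female sites were higher. The mean of the DGRP lines in place of the D.mel stock was an alternative chosen after seeing the data, possible at 287 male sites only. It gave 29 sites higher and 25 lower, against 20 and 32 with the stock at the same sites. Gains numbered 4 with presence from 5% and 0 from 20%, and losses 38 and 10. In limma, calls higher and lower were 8 and 34 with an offset of 0.001, 13 and 29 with 0.05, 7 and 12 on untransformed levels, 9 and 30 over all 347 sites with 4 levels, and 4 and 18 without a term for sex. Beyond the range of the D.mel strains lay 54 sites above and 79 below with a margin of 0 points, 20 and 25 with 5 points, and 1 and 3 with 20 points. The medians and all other counts stayed within 1.5 times or within the spread between libraries of a line. In the 5 alternative limma fits of the 16 sites named, 14 results lost and 1 gained the threshold. The direction of these sites could not reverse in the fits, because they were chosen for the same sign in both sexes. A minimum of reads applied to every level, but the reads behind single levels are not in the tables, so that no counting error can be set beside levels near 1.5%.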

Other observations

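D.yak had a level at 49 male and 43 female sites where D.mel of the same sex had none, and it was at 10% or more at 22 and 18 of these. At 6 sites D.yak reached 10% and D.mel had no level in either sex. Of these, 3R:14180916 had 99.10% in D.yak males and 44.55% in D.yak females, and 3R:14180920 had 63.90% and 25.75%. D.sim had 30.90% in females at the first, and 10.05% in males and 20.35% in females at the second. At X:14166129, D.yak had 27.35% in males and 64.40% in females, and the DGRP libraries had 56.2% to 99.6%.

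At 3R:23500458, D.yak had 99.75% in males and 12.50% in females. D.mel had 51.40% in females, and the DGRP libraries had 6.0% to 83.8%.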
